A study of Sus scrofa with 6 samples.

Results

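Metallothioneins were followed in 2 skeletal muscles of the pig, the longissimus dorsi muscle (LDM) and the psoas major muscle (PMM), with oligonucleotide probes of an Agilent array. Probes were taken when the array's annotation named them MT1A or described them with the word metallothionein, which gave 4 of the 43603 probes besides the controls. MT1A led the choice because it was about 4-fold lower in PMM in these arrays, so all values of the probes in this comparison are descriptions and were not tested. The 6 arrays, 3 for each muscle, carried RNA of female Landrace pigs slaughtered at 210 days of age after 24 h without feed. None of the groups had a genetic change or a drug treatment. Per the study's methods, LDM and PMM came from the same 3 pigs, but the labels do not tie the replicate numbers to the animals. The spread between arrays of a muscle may hold both differences between pigs and technical ones, which cannot be told apart. Without a block, p-values rest on that spread. With the replicate number as a block, they rest on the spread of the differences between same-numbered arrays. In both cases the spread of a gene was moderated towards a value shared by all genes, so that p-values do not measure its own spread alone. The labels name the tissue as muscle, whereas their text on RNA extraction speaks of adipose tissue. All 14 markers of skeletal muscle examined, among them CKM and MYH1, were detected (well above the background) on each of the 6 arrays.

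Metallothioneins are small proteins, rich in cysteine, that bind zinc and copper and buffer the free metal in the cell. Their genes lie side by side and are switched on by metals through the zinc-sensing factor MTF1, by glucocorticoids and by oxidative stress. In skeletal muscle they are known as genes that respond to fasting and wasting. MT1A belongs to the widely expressed and inducible members, while MT3 was first described in the brain as a growth inhibitory factor.

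In the RefSeq order of genes of the Sscrofa11.1 assembly, 7 protein-coding genes run from MT4 to MT1A, followed by NUP93. They are MT4, MT3, MT-2B, MT1D, LOC100739663, LOC102166944 and MT1A. Of these, 3 had a probe on the array and 4 did not. The array's annotation lists its probes as unmapped, so that no position in the genome is given here. The 60-base probe for MT1A begins at base 309 of the transcript it was designed on, and the probe for MT3, which the array calls MT-III, at base 317. Their last 30 bases, 5′ to 3′, are shown so that the measured target can be recognized, with capitals for AATAAA, the letters of the common signal for polyadenylation. A match of letters is a description and no proof of a site.
MT1A: tgaaatatgtgagttgtAATAAAagttgtc
MT3: gacAATAAAtcctgtgaaaggcgtaaaaaa

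AATAAA, searched on the printed strand of the probes, was held by 5279 of the 43603 probes (12.1%). MT1A and MT3 shared no run of letters longer than 8 bases, and the probe for MT-2B shared at most 5 bases with MT1A and 6 with MT3. The longest run that the MT1A probe shared with any other probe on the array was 17 bases. That other probe, designed on a liver cDNA, was well above the background on 0 of the 6 arrays. Whether transcripts of the 4 genes without a probe bind to the MT1A probe was not tested. Any such binding would make the MT1A signal uncertain to that extent.

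The other two probes chosen were designed on assembled sequences, TC376282 and TC399021. TC376282 is described as similar to the dog protein tesmin, which carries metallothionein-like cysteine motifs, and TC399021 as similar to a metallothionein of wheat. The probe for MT-2B stood outside the rule, since its description lacks the word. It is given beside the others as a neighbour of MT3 and MT1A in the gene order. Spots are called well above the background by the scanner software, which compares the signal with the local background and its noise. MT1A, MT3 and MT-2B met this call on each of the 6 arrays and entered the fits. TC376282 and TC399021 did not.

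MT1A was higher in LDM than in PMM on every array. Its processed intensity, in units of the scanner after subtraction of the background, was 1933, 916 and 1220 in LDM replicates 1, 2 and 3. In PMM replicates 1, 2 and 3 it was 151, 482 and 295. The lowest LDM array thus stood above the highest PMM array, and the spot errors given by the software were at most 10.4% of the signal. The mean signal of the spot was 7.52 times the local background on the dimmest array and 61.2 times on the brightest.

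Signals were then put on a common scale as log2 of the intensity minus log2 of the array's 75th percentile, so that 0 stands for the 75th percentile. On this scale MT1A was at 1.51, 0.06 and 0.89 in LDM replicates 1, 2 and 3, with a mean of 0.82 ± 0.73 (SD, n = 3). In PMM it was at -1.97, -0.72 and -1.19, with a mean of -1.29 ± 0.63 (SD, n = 3). The log2 difference, PMM minus LDM, was -2.11, a 4.32-fold higher mean in LDM. The gap between the nearest arrays of the muscles, LDM replicate 2 and PMM replicate 2, was 0.77 on the log2 scale (1.71-fold). With RNA from whole muscle, fewer cells that express a gene and less of its RNA per cell cannot be told apart.

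For MT3 the spread among the arrays of a muscle exceeded the difference between the muscles. Its intensity was 6233, 4422 and 14115 units in LDM replicates 1, 2 and 3 and 4261, 3235 and 9597 units in PMM. Replicate 3 was the brightest and replicate 2 the dimmest in both muscles, and the muscles overlapped. On the normalized log2 scale the means were 3.32 ± 1.05 in LDM and 2.90 ± 0.90 in PMM (SD, n = 3), a log2 difference of -0.41 or 1.33-fold more in LDM. The sign of this difference turned when LDM replicate 3 (0.14) or PMM replicate 2 (0.02) was left out. Leaving out a single array unbalances the replicate numbers between the muscles. When both arrays of replicate 1, 2 or 3 were left out, the difference kept its sign, at -0.44, -0.47 and -0.33.

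MT-2B was bright on all arrays in both muscles, and its signal cannot be set against that of another probe as an amount of RNA. Its intensity was 43719, 89035 and 80184 units in LDM and 38190, 77075 and 57787 units in PMM, in the order of the replicates, and no spot on any array was saturated. Means on the normalized log2 scale were 6.53 ± 0.47 in LDM and 6.34 ± 0.30 in PMM (SD, n = 3), a log2 difference of -0.19, and the muscles overlapped. The sign turned without LDM replicate 3 (0.01). Without both arrays of replicate 1, 2 or 3 the difference was -0.28, -0.25 and -0.03.

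TC376282 stayed within the background on every array, with intensities between 2.58 and 7.17 units and spot errors between 76.3% and 99.9%, so no fold is given. TC399021 was well above the background on LDM replicates 1 and 2 and on PMM replicate 2. Its intensities there were 22.6, 44.3 and 34.7 units, against 6.93, 13.0 and 21.7 units on the other three arrays, LDM replicate 3 and PMM replicates 1 and 3. These dim probes gave no order of the muscles.

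The same-numbered arrays of LDM and PMM were then compared with each other. MT1A was 11.1-fold higher in LDM in pair 1, 1.71-fold in pair 2 and 4.24-fold in pair 3, which are log2 differences of -3.48, -0.77 and -2.08. The direction was the same in 3 of 3 pairs, whereas the size ranged widely (SD of the log2 differences 1.35, n = 3). The SD over pairs was smaller than that of MT1A in 98.96% of the 3261 named genes tested, with a median of 0.27. For MT3 the pair differences were -0.35, -0.30 and -0.59 (SD 0.16, n = 3). For MT-2B they were -1.9e-05, -0.05 and -0.51 (SD 0.28, n = 3). The 5th percentile of the differences over named genes was -0.74 in pair 1, -0.46 in pair 2 and -0.80 in pair 3. MT1A was below it in all 3 pairs, whereas MT3 and MT-2B were above it in each.

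Among all named genes, 714 of 3261 (21.9%) were lower in PMM in 3 of 3 pairs, and 100 of 3261 (3.07%) had every PMM array below every LDM array. MT1A was in both sets, MT3 and MT-2B were in the first set only. A mean difference of 4-fold or more downwards was found in 8 genes (0.245%), and MT1A was the last of these. The gene just below it was TNMD (tenomodulin, a tendon protein), with a log2 difference of -2.51, and the one just above was POSTN (periostin, a matrix protein), with -1.62. Over all named genes, 5% had a log2 difference below -0.52. As these values come from the comparison that chose MT1A, nothing is read from its rank.

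Pairs differed in how far apart their arrays were over all genes. The SD of the log2 differences over genes was 0.62 in pair 1, 0.37 in pair 2 and 0.56 in pair 3. In pair 1, 90 genes were lower and 213 were higher by 2-fold or more in PMM, while in pair 2 these were 20 and 50 genes. MT1A held place 3 from the lowest of 3259 genes in pair 1, place 47 of 3257 in pair 2 and place 21 of 3257 in pair 3. The arrays of pair 1 lay on different slides, whereas those of pair 2 and of pair 3 shared a slide each, so that the differences of -0.77 and -2.08 are values within a slide. The share of spots well above the background was 72.4% in LDM and 60.1% in PMM for pair 1, 68.8% and 66.8% for pair 2, and 58.5% and 62.5% for pair 3. The part of slides and of detection in the size of the MT1A difference was not tested. Without pair 1 the mean log2 difference of MT1A was -1.43.

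Within LDM the order of the MT1A signal was replicate 1, then 3, then 2, from high to low, and within PMM it was replicate 2, then 3, then 1. The replicate number with the most MT1A in LDM therefore had the least in PMM, and the reverse. The highest array exceeded the lowest 2.74-fold in LDM and 2.38-fold in PMM. A reversed order of the replicates was found in 72 of 3261 genes (2.21%), and the same order in both muscles in 1743 (53.4%). MT3 had the same order, 3, then 1, then 2, in both. With 3 arrays a muscle, neither order was tested. The mean SD within a muscle (pooled) of MT1A was 0.68 on the log2 scale, larger than in 77.6% of genes. For MT3 it was 0.98, larger than in 93.9% of genes.

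The named genes whose signal over the 6 arrays was most like that of MT1A were sought by Pearson's r. They were PHF7 (r = 0.977), ANXA8 (an annexin, r = 0.955), LOC100156937 (r = 0.947), KLF5 (a zinc finger transcription factor, r = 0.944) and PALMD (palmdelphin, r = 0.931), each over 6 arrays. After the mean of each muscle was removed, r was 0.898, 0.775, 0.747, 0.714 and 0.653 in the same order. ANXA8, LOC100156937, KLF5 and PALMD were lower in PMM, with log2 differences of -1.19, -0.47, -0.89 and -0.69, against -2.11 for MT1A. These values are descriptions, as the genes were picked for them out of 3261 and all points share the arrays. PHF7 was well above the background on the 3 LDM arrays and on none of PMM, so that it passed the filter through LDM alone and its PMM values, which enter its r, are background. Its LDM mean was 1.49-fold above a level set from the lowest signals well above the background on the PMM arrays. That level is no strict bound. On PMM replicate 2, PHF7 (-5.15) lay above the lowest such signal of the array (-5.21) without being called. The other probe of PHF7, which did not enter the fits, had an r of 0.31. For the second probes of ANXA8, KLF5 and PALMD, r was 0.725, 0.817 and 0.891. MT3 (r = 0.286) took place 711 in this order of likeness and MT-2B (r = 0.227) place 872. Leaving out single arrays gave an r of -0.02 to 0.50 for MT3 and of -0.23 to 0.96 for MT-2B. These places therefore hang on single arrays.

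Genes of the pathways that act on metallothioneins were examined next, with limma (lmFit and eBayes, two-sided, Benjamini-Hochberg adjustment over all 3261 genes, threshold 0.05). In this fit 0 of 3261 genes (0%) were called between PMM and LDM, and 120 had an unadjusted p under 0.05. A fit that took the replicate number as a block called 190 genes (5.83%), of which 122 were higher (3.74%) and 68 were lower (2.09%) in PMM. With this block 626 of the 3261 genes had an unadjusted p under 0.05. Over the 25834 probes tested, limma called 0 (0%) without the block, with 689 at an unadjusted p under 0.05, and 16 (0.0619%) with it. The block gave 0 called genes after quantile normalization, or when pair 3 was left out. The median log2 difference of all genes was -0.01.

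Zinc and copper handling covers the transporters that move zinc in and out of the cell and the copper proteins. Of its 32 genes, 11 had a named probe and 8 were tested; ATP7A, ATP7B and SLC31A1, which carry copper, were not. MTF1 had no named probe. None of the 8 was called by limma in either fit. An unadjusted p under 0.05 was found in 0 of them without the block and in 1 with it, against 120 and 626 of all 3261 genes. The median log2 difference of the 8 was -0.04, with a range from -0.40 to 0.12. The lowest were CCS, the copper chaperone of superoxide dismutase, at -0.40 ± 0.33 (SE), SLC39A1, a zinc importer, at -0.32 ± 0.35, and SLC30A6, a zinc transporter of the Golgi, at -0.10 ± 0.35. The highest were SOD1, the copper and zinc superoxide dismutase, at 0.12 ± 0.31, SLC30A1, the zinc exporter of the cell surface and like MT1A a target of MTF1, at 0.10 ± 0.32, and SLC39A9 at 0.01 ± 0.32. In SLC30A1 the pair differences were 0.75, -0.02 and -0.44. They had no common direction.

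The glucocorticoid and fasting response was represented by 14 of 24 genes, all tested, and limma called 0 in either fit. An unadjusted p under 0.05 was found in 0 of them without the block and in 4 with it, against 120 and 626 of all 3261 genes. The median log2 difference of the 14 genes was -0.12, with 9 genes lower and 5 higher in PMM, where 50.9% of all genes were lower. CDKN1A, the cell cycle inhibitor p21, had -0.74 ± 0.36 (SE). DDIT4, a stress-induced inhibitor of mTOR signalling, had -0.59 ± 0.31, with all PMM arrays below all LDM arrays and an adjusted p of 0.095 in limma with the block. Such a lack of overlap was found in 1 of the 14 genes, against 3.07% of all genes. HSD11B1, the enzyme that regenerates active cortisol, had -0.48 ± 0.44. CDKN1A and DDIT4 passed the threshold only with the slide as a random block (limma adjusted p of 0.021 and 0.027) and, for CDKN1A, with the replicate block without pair 1 (0.026). The highest values were those of ANGPTL4, an inhibitor of lipoprotein lipase, at 0.40 ± 0.42, GLUL, glutamine synthetase, at 0.21 ± 0.42, and KLF9 at 0.03 ± 0.33. The spot of GLUL was dropped as an outlier on one array of pair 2. NR3C1, the glucocorticoid receptor, which was named after its value was seen, had a log2 difference of 0.01, with either sign among the alternatives.

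Of 15 genes of the oxidative stress response, targets or partners of the factor NRF2, 9 had a named probe and 8 were tested. None was called with or without the block, and an unadjusted p under 0.05 was found in 0 of them in either fit. Their median log2 difference was -0.03. GCLM, a subunit of the enzyme that starts glutathione synthesis, had -0.35 ± 0.34 (SE), KEAP1, the inhibitor of NRF2, -0.33 ± 0.36, and TXN, thioredoxin, -0.11 ± 0.31. TXNRD1, thioredoxin reductase, had 0.13 ± 0.28, FTH1, the heavy chain of ferritin, 0.11 ± 0.27, and GSR, glutathione reductase, 0.09 ± 0.41.

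Marker genes of the cell types in a muscle sample moved beside MT1A as follows. All 5 tested fibroblast markers of 9 listed were lower in PMM, against 50.9% of all genes, with a median log2 difference of -0.82. With the block 3 of them were called lower, against 2.09% of all genes. POSTN had -1.62 ± 0.58 (SE without the block; limma adjusted p = 0.002 with the block). COL1A1 and COL1A2, chains of type I collagen, had -0.82 ± 0.53 and -0.83 ± 0.53 (both limma adjusted p = 0.020 with the block). With normexp background correction they were -0.07 and -0.38, without LDM replicate 3 they were -0.33 and -0.34, and without PMM replicate 1 they were -0.53 and -0.48. POSTN was -1.01 without PMM replicate 1. Without pair 2 the block called POSTN alone of these. The 2 brightest, DCN (decorin) and COL3A1, had -0.43 and -0.41. Summed over the list, the linear signal ranged from 99.3 to 224 in LDM and from 71.7 to 155 in PMM, in multiples of the 75th percentile, and so overlapped. The part of these markers in the MT1A difference was not tested.

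Of the 14 muscle markers, with a median log2 difference of 0.16, 2 were called higher with the block, against 3.74% of all genes. MB, myoglobin, had 1.48 ± 0.40 (SE without the block; limma adjusted p = 0.010 with it) and TNNI1, the troponin I of slow fibres, had 1.04 ± 0.34 (adjusted p = 0.018 with it). Without pair 1 TNNI1 had 0.73, with a limma adjusted p of 0.081. The 2 brightest, CKM (muscle creatine kinase) and MYH1 (a fast myosin heavy chain), had 0.15 and 0.09. Summed muscle signal ranged from 5303 to 8730 in LDM and from 6584 to 10689 in PMM. Of 10 tested adipocyte markers, with a median of -0.20, LPL (lipoprotein lipase) was called higher (1.12) and PLIN1 and CIDEC, both of the lipid droplet, were called lower (-1.02 and -0.85) with the block. Over all genes, 3.74% were called higher and 2.09% lower in that fit. The sign of PLIN1 turned with normexp (0.17), and without PMM replicate 1 PLIN1 was -0.29 and CIDEC -0.36. CIDEC was -0.44 without LDM replicate 2 and -1.35 without PMM replicate 2. Without pair 1 none of these passed, at 0.67 for LPL and -0.63 for both others, and without pair 2 CIDEC did not pass in the same fit (-0.94, limma adjusted p = 0.15). RETN, at -0.96, passed in 1 of 20 alternatives, with a limma adjusted p of 0.0016, and ranged from -1.69 to 0.07 over them. PLIN1 and RETN were well above the background on 5 of the 6 arrays. On PMM replicate 1 they lay at -5.50 and -5.97, below the lowest such signal of that array (-4.79). The difference of PLIN1 in pair 1 (-1.79), the largest of its pairs, thus rests on a background value. The 2 brightest, CFD and FABP4, had 0.06 and 0.11. Summed adipocyte signal was 163 to 528 in LDM and 196 to 485 in PMM. None of the 6 endothelial and 5 macrophage markers, with medians of 0.35 and 0.11, was called in either limma fit. All 6 endothelial and 4 of the 5 macrophage markers were higher in PMM, where 50.9% of all genes were lower. Without the block 0 of both lists had an unadjusted p under 0.05. With it 2 endothelial markers did, against 626 of all 3261 genes. PECAM1 and VWF, the brightest endothelial markers, had 0.29 and 0.22 and summed to 54.9 to 169 in LDM and 96.2 to 167 in PMM with the rest of their list. AIF1 and CD163, the brightest macrophage markers, had 0.01 and 0.11, and the list summed to 11.5 to 49.1 in LDM and 14.3 to 42.9 in PMM. No erythrocyte marker had a named probe. POSTN, COL1A1, COL1A2, MB, TNNI1, LPL, PLIN1, CIDEC and RETN were named after their values were seen.

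Set side by side, the pair differences of MB were 2.37, 0.65 and 1.41 in pairs 1, 2 and 3, those of TNNI1 were 1.66, 0.58 and 0.88, and those of POSTN were -2.09, -1.08 and -1.69. As for MT1A, they were largest in size in pair 1 and smallest in pair 2. The pairs share this with the spread over all genes given above, and whether the sizes go together beyond that spread was not tested.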

How the data were processed

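Gene expression was measured with 6 one-colour Agilent arrays, 3 each of LDM and PMM, grouped by the sample titles. The authors deposited linear spot intensities from Agilent Feature Extraction 10.5.1.1 (Cy3), with background and spatial trends removed and no normalization between arrays. The deposited value table held the same intensities within 0.005 units. The normalization and test of the authors' array workflow are not given in the sources used here. Methylation and miRNA data were not analysed here.

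Outlier spots (6 to 161 per array) were left out, and repeated spots were averaged. The 75th percentile of the intensity was 595 to 883 units. Probes entered the fits if every one of the 3 arrays of at least one muscle had a signal well above the background and each muscle had 2 or more values, which left 25834 probes. Probes were named by RefSeq accession (3055), gene number (1232) or the name in the files (1512), and 37804 stayed unnamed. The brightest probe of a gene stood for it (3261 of 4011 genes tested). limma 3.58.1 in R 4.3.3 was used, after a check on simulated data with 200 features changed. Of changed genes, 67.5% were recovered without the block and 75.5% with it. Of changed probes, 42.5% and 51% were recovered. A lack of calls is thus no sign of a lack of difference. The number of arrays limits the precision.

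Deviations from the muscle mean correlated at 0.616, 0.697 and 0.560 between arrays of the same replicate number (-0.536 to -0.011 otherwise, which is no independent baseline). As the study sampled LDM and PMM of each pig and every pair exceeded 0.1, same-numbered arrays were treated as pairs. Replicate number and scan day coincided (3 days, 4 slides).

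The members and the lists were chosen with earlier results of these data known. Named were the metallothionein probes, MTF1, the 5 genes most like MT1A, up to 3 genes in each direction of the metal, glucocorticoid and fasting, and oxidative stress lists and any of their members called, and the 2 brightest of each marker list. Others named after their values were seen are marked so, and TNMD was named for its rank. Alternatives were other scalings, normexp background correction, no detection filter, outliers kept, the value table, all probes of a gene, replicate and slide blocks, and leaving out arrays. The replicate block with quantile normalization, or without a pair, and the likeness without each array were added after the data had been seen.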

Additional observations from a re-analysis of the deposited data

How the results depend on the processing

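The log2 difference of MT1A kept its sign under all 20 alternatives, between -2.78 and -1.43. It moved by more than the spread between replicates in the fit with the replicate block without pair 1 (-1.43), and it was -1.55 after normexp correction and -1.54 with the slide as a block. Leaving out single arrays gave -2.49 to -1.77. The median of the metallothionein probes was -1.26 over 2 probes, MT1A and MT3. This median rests in part on the MT1A difference that led the choice, and MT-2B (-0.19) did not enter it. The median was -0.073 over 4 probes with no detection filter and -0.40 over 3 probes with the replicate block without pair 3. Without single arrays it was -1.70 to -0.384, the latter with 3 probes without LDM replicate 3. Genes called numbered 0 without a block, 190 with the replicate block, 122 and 140 with that block without pair 1 or 2, 0 without pair 3, and 196 with the slide as a block. Probes called numbered 0, against 9 with median centring, 1 with normexp, 7 with quantile normalization, 322 with the slide as a block and 0 to 1 without single arrays. With the replicate block they numbered 16, and 224 without pair 1. With that block they numbered 0 without pair 2, without pair 3 or after quantile normalization. The r of PHF7 to MT1A was 0.898 within muscles, 1 as Spearman's rho and 0.990 after quantile normalization. As the PMM values of PHF7 are background and its other probe had an r of 0.31, these variants do not make the likeness firm. The replicate block changed the calls of POSTN, COL1A1, COL1A2, MB, TNNI1, LPL, PLIN1 and CIDEC and no other call of a list gene. The causes were not tested.

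Some of the list genes named changed sign, as follows in log2 differences, besides RETN, whose range is given above. Of those called with the block only PLIN1 did, at 0.169 with normexp. With median centring SLC39A9 was -0.058, KLF9 -0.031, CFD -0.0082, NR3C1 -0.052 and AIF1 -0.056. With normexp SOD1 was -0.029, GLUL -0.125, GSR -0.031, FTH1 -0.043, TXNRD1 -0.018, CKM -0.090, MYH1 -0.089, CFD -0.128, FABP4 -0.038, NR3C1 -0.176, AIF1 -0.078 and CD163 -0.030. With outliers kept SLC39A9 was -0.0013 and GLUL -0.213. With quantile normalization, with or without the replicate block, SLC39A9 was -0.048, KLF9 -0.0035, MYH1 -0.0056 and FABP4 -0.00084. With the slide as a block SLC30A1 was -0.178, KLF9 -0.104, GLUL -0.324, CFD -0.105, NR3C1 -0.187 and AIF1 -0.054. With the replicate block and without pair 1, SLC30A1 was -0.230, KLF9 -0.131, GLUL -0.145, CFD -0.136, NR3C1 -0.225, AIF1 -0.066 and CD163 -0.0098. Without pair 2 SLC39A9 was -0.046, and without pair 3 SLC30A6 was 0.0092. Without single arrays the ranges were -0.278 to 0.185 for SLC30A6, -0.208 to 0.169 for SLC39A9, -0.149 to 0.301 for SLC30A1, -0.023 to 0.331 for SOD1, -0.205 to 0.241 for KLF9, -0.173 to 0.187 for NR3C1, -0.017 to 0.741 for ANGPTL4, -0.313 to 0.032 for TXN, -0.209 to 0.405 for GSR, -0.0014 to 0.165 for FTH1, -0.066 to 0.310 for CKM, -0.122 to 0.314 for MYH1, -0.483 to 0.493 for CFD, -0.534 to 0.777 for FABP4, -0.154 to 0.740 for PECAM1, -0.212 to 0.619 for VWF, -0.566 to 0.510 for AIF1 and -0.451 to 0.597 for CD163.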
